A study of Mus musculus with 8 samples.

Results

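Transcripts of 41 listed autophagy, lysosome and FoxO genes were followed in long-term haematopoietic stem cells (LT-HSC) of mice that did or did not receive a total body dose of 2 Gy. The genes were chosen by name. Each was read from the probe set with the highest mean among those that the array's annotation pairs with its symbol. A tested probe set was found for 40 of the 41, out of 29915 genes tested, and Optn was not analysed here. LT-HSC were sorted from bone marrow as Lin- cKit+ Sca+ Flk2- CD48- CD150+ cells, and total RNA was hybridised to Affymetrix arrays. The 8 arrays fall into 4 groups of 2. These are CD169DTR/+ mice after 2 Gy, CD169DTR/+ mice without irradiation, WT mice after 2 Gy and WT mice without irradiation. CD169DTR/+ mice carry 1 allele that places the diphtheria toxin receptor under the gene for CD169 (Siglec1), a surface protein of resident macrophages, so the toxin removes CD169+ cells. All groups received diphtheria toxin, WT mice included, 72 h before the 2 Gy or sham exposure, and cells were taken on day 5. The 2 arrays of a group came from separate experiments, the number of mice behind an array is not given, and p-values measure the spread between these arrays only.

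Autophagy encloses cytoplasm in a double membrane and delivers it to lysosomes. The ULK1 kinase complex starts the process, the Vps34 PI3-kinase complex marks the membrane with phosphatidylinositol 3-phosphate, and a ubiquitin-like conjugation system attaches Atg8 proteins (the LC3 and GABARAP families) to it. Cargo receptors such as p62, the product of Sqstm1, bridge ubiquitin-tagged cargo to these proteins, and the transcription factors TFEB and TFE3 drive lysosomal genes. FoxO factors, held out of the nucleus by PI3K-Akt signalling, induce many autophagy genes. In mouse HSC, FoxO3 is known for maintaining an autophagy gene program and autophagy for limiting mitochondrial load and preserving quiescence.

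Values are the authors' log2 array signals, and a difference of 1 is a 2-fold change. They rank samples for 1 gene and not genes against each other. Of the 40, 39 lay above the 40th percentile of the mean signal (4.4 log2). Map1lc3a lay just below it, and Foxo4, Tfe3, Atg16l1 and Tfeb lay low, at 5.1 to 5.4 log2. The median of the members' within-group SDs was 0.198 log2, against 0.215 for the tested probe sets above that percentile. Atg14 was the least reproducible, at 6.73 and 5.24 in irradiated CD169-DTR cells, 5.48 and 7.64 in non-irradiated CD169-DTR cells, 6.71 and 7.08 in irradiated WT cells and 7.80 and 5.67 in non-irradiated WT cells. Atg4c also spread widely, with a within-group SD of 0.835 log2, so differences in either gene are not resolved by these arrays.

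Sorted identity was checked with marker lists. The 6 measured LT-HSC markers, Kit and Slamf1 among them, averaged 10.08 to 10.57 log2 over the 8 arrays. Their list mean was 10.19 and 10.08 in irradiated against 10.41 and 10.26 in non-irradiated CD169-DTR cells, and 10.50 and 10.26 against 10.57 and 10.53 in WT cells. Of these 6 markers, 2 were lower after irradiation at an unadjusted p under 0.05 in CD169-DTR cells and 3 in WT cells. At that threshold 3.53% and 3.21% of all probe sets were lower. The 8 granulocyte-monocyte progenitor and neutrophil markers did not stay level. Their list mean was 10.01 and 9.74 in irradiated against 9.55 and 10.02 in non-irradiated CD169-DTR cells, and 10.37 and 11.27 against 8.42 and 9.16 in WT cells. All 8 of these markers were higher in irradiated than in non-irradiated WT cells, 7 of them at an unadjusted p under 0.05. Of all probe sets, 4.6% were higher there at that threshold. The 8 monocyte and macrophage markers averaged 4.87 to 5.32 log2, with Siglec1, Csf1r and Mertk below the 40th percentile. All 6 measured erythroid markers were lower in sign in irradiated CD169-DTR cells, with a list mean of 6.94 and 6.10 against 6.98 and 8.18, while in WT cells 2 of 6 were (6.66 and 7.33 against 7.6 and 7.4). Car1 varied most of the 6 and was lower in both genotypes. It had 11.89 and 8.09 in irradiated against 12.12 and 16.07 in non-irradiated CD169-DTR cells, and 10.55 and 12.93 against 15.09 and 14.47 in WT cells. The 7 megakaryocyte markers had a list mean of 9.11 and 8.73 against 8.30 and 8.47 in CD169-DTR cells and of 9.61 and 8.56 against 8.71 and 8.75 in WT cells. Among them Ppbp ranged from 5.53 to 10.77 over the arrays. Mature T, NK and B cell markers (7 measured) averaged 5.97 to 6.45, with Nkg7 at 13.51 to 15.05 and the others at 7.47 or less. Each array averages a whole sort, so fewer cells of a type and less RNA per cell cannot be told apart. The part of these marker shifts in the results on irradiation was not tested. On the first 2 principal components of all probe sets (21.7% and 19.7% of the variance), irradiated WT replicate 1 and irradiated CD169-DTR replicate 2 lay farthest from the other arrays. Some results are therefore also given without both, an alternative chosen after the data were seen. That fit leaves 1 array in each 2 Gy group, so its spread comes from the non-irradiated groups alone. Its counts at an unadjusted p are not given.

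In WT cells 5 days after 2 Gy, Sqstm1, Ulk1, Gabarapl1, Pik3r4, Atg16l1 and Foxo3 were lower than in non-irradiated WT cells and Atg3 was higher, each at an unadjusted p under 0.05 and none after adjustment. By limma with Benjamini-Hochberg adjustment over 30294 probe sets, 0 of the 40 members passed an adjusted p of 0.05, against 0.0099% of all probe sets (3 of them). Of the members, 6 (15.0%) were lower at an unadjusted p under 0.05, against 3.21% of all probe sets, and 1 (2.5%) was higher, against 4.6%. After each array was centred on its own median, which moved the median of all probe sets by -0.115 log2, 9 were lower (against 6.06% of all probe sets) and 0 higher (against 1.9%). Centring shifts every gene of a comparison alike. Over all 40161 probe sets, array medians were 4.93 and 4.85 log2 in irradiated against 4.77 and 4.77 in non-irradiated WT cells. These medians lay below nearly all members. The lower quartile was also higher after irradiation, at 4.04 and 3.95 against 3.88 and 3.87 log2. The upper quartile went the other way, at 7.59 and 7.62 in irradiated against 7.63 and 7.66 in non-irradiated WT cells. Most members lay above that upper quartile. After cyclic loess, 5 members were lower (against 3.91%) and 1 was higher (against 3.4%). The members' median minus that of all probe sets was -0.128 log2 as deposited and after centring, and -0.0729 log2 after cyclic loess. The arrays of the groups did not overlap on the lower side for 13 members (32.5%, against 13.2% of all probe sets) and on the higher side for 4 (10%, against 31.4%). The members' median difference was -0.05 log2, while the median of all genes was 0.075 log2, and 23 of 40 members and 10533 of 29915 genes were lower in sign. The within-group SD of the members' median was 0.073 log2. The shares and medians of all probe sets or genes include low-signal ones, so they are not matched to the members. Whether the members were lower than genes of like signal was not tested. Granulocyte markers, given above, were higher in the same comparison. Without both outlying arrays, 1 array is left in the irradiated WT group, so no count is given.

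In CD169-DTR cells, member counts after the same exposure lay at or below the background on both sides. None of the 40 members passed the adjusted threshold, where 0.0% of all probe sets did. Foxo4 was higher at an unadjusted p under 0.05, which makes 1 member (2.5%) against 3.24% of all probe sets. On the lower side there were 0 members, against 3.53%. The groups did not overlap for 5 members on the higher side (12.5%, against 17.8%) and 4 on the lower side (10%, against 13.4%). The members' median was -0.085 log2, against 0.035 log2 for all genes, with 26 of 40 members and 12750 of 29915 genes lower in sign. Leaving out both outlying arrays leaves 1 irradiated CD169-DTR array, so no count is given.

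**Figure D1:**
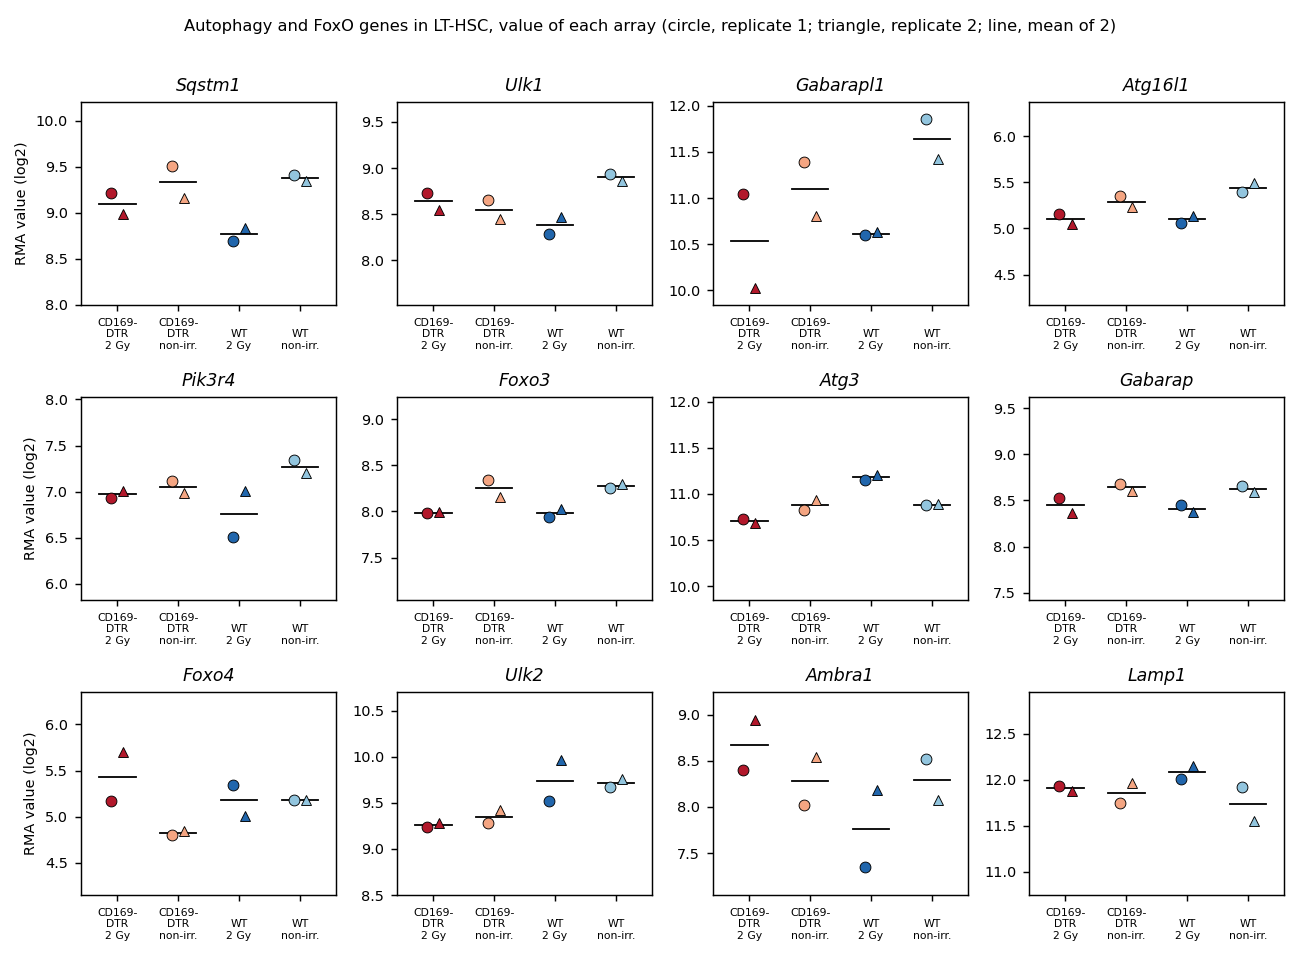
Log2 signal of selected members on each of the 8 arrays, 1 panel per gene, with the groups from left to right CD169-DTR 2 Gy, CD169-DTR non-irradiated, WT 2 Gy and WT non-irradiated, points for arrays and lines for group means. The Sqstm1 points of irradiated WT cells (8.69 and 8.84) sit below those of every other group.

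The ULK1 complex held 4 members. Ulk1, the kinase that starts autophagosome formation, had 8.73 and 8.55 log2 in irradiated and 8.65 and 8.45 in non-irradiated CD169-DTR cells. In WT cells it had 8.29 and 8.47 with irradiation, against 8.94 and 8.86 without. The WT groups did not overlap and the CD169-DTR groups did. The WT difference was -0.52 ± 0.138 log2 (SE), 1.43-fold lower (limma, adjusted p = 0.508). It lay between -0.61 and -0.43 when each of the 8 arrays was left out in turn. Its paralogue Ulk2 had 9.24 and 9.28 in irradiated and 9.28 and 9.42 in non-irradiated CD169-DTR cells, with 9.52 and 9.96 in irradiated and 9.67 and 9.76 in non-irradiated WT cells. For Ulk2 the genotypes separated and the doses did not. The scaffold genes Atg13 and Rb1cc1 differed by -0.45 and 0.04 log2 in WT cells, neither beyond the spread.

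Among the 6 genes of the PI3-kinase complex, Pik3r4, its regulatory kinase-like subunit, had the smallest p in WT cells. It had 6.93 and 7.01 in irradiated against 7.11 and 6.99 in non-irradiated CD169-DTR cells, and 6.51 and 7.01 against 7.34 and 7.20 in WT cells. The WT arrays did not overlap, and the WT difference was -0.51 ± 0.181 log2 (limma, adjusted p = 0.582). That difference varied, at -0.26 without irradiated WT replicate 1 and -0.76 without irradiated WT replicate 2. Becn1, the scaffold around which the complex forms, had 8.34 and 7.84 in irradiated and 8.25 and 8.25 in non-irradiated CD169-DTR cells. In WT cells Becn1 had 8.16 and 8.23 with irradiation and 8.11 and 7.90 without. Its differences were -0.16 ± 0.183 log2 in CD169-DTR cells and 0.19 ± 0.183 in WT cells, neither beyond the spread. Ambra1, a Beclin 1 partner, ranged from 7.35 to 8.94 over the arrays and is described with the genotypes. Over the 6 genes, which also include the catalytic subunit Pik3c3, Atg14 and Uvrag, differences lay between -0.575 and 0.39 log2 in CD169-DTR cells and between -0.53 and 0.19 in WT cells. For the 5 genes of membrane supply and lipid reading (Atg2a, Atg2b, Atg9a, Wipi1 and Wipi2), differences lay between -0.16 and 0.215 log2 in CD169-DTR cells and between -0.265 and 0.39 in WT cells, none at an unadjusted p under 0.05.

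The conjugation machinery held 10 members, of which 7 were lower in sign in CD169-DTR cells and 6 in WT cells. Atg3, the E2-like enzyme that transfers Atg8 proteins to phosphatidylethanolamine, was the member with the lowest within-group SD (0.044 log2) and one of those higher in WT cells. It had 10.73 and 10.69 in irradiated against 10.83 and 10.93 in non-irradiated CD169-DTR cells, and 11.15 and 11.21 against 10.88 and 10.89 in WT cells. The groups did not overlap in either genotype, with the irradiated one lower in CD169-DTR cells and higher in WT cells. The WT difference was 0.295 ± 0.109 log2, 1.23-fold higher (limma, adjusted p = 0.596), and 0.18, above an unadjusted p of 0.05, after each array was centred on its own median. As deposited, it lay between 0.265 and 0.325 with each array left out in turn. Atg16l1, which places the E3-like complex on the membrane, had 5.16 and 5.05 in irradiated against 5.35 and 5.23 in non-irradiated CD169-DTR cells, and 5.06 and 5.14 against 5.39 and 5.49 in WT cells. Both pairs of groups were separated with the irradiated one lower, although the signal was low, and the WT difference was -0.34 ± 0.118 log2 (limma, adjusted p = 0.58). With each array left out in turn, that difference lay between -0.39 and -0.29. Atg5 had 10.76 and 10.63 in irradiated and 10.54 and 10.62 in non-irradiated CD169-DTR cells, and 10.79 and 10.86 in irradiated and 10.49 and 10.99 in non-irradiated WT cells. Atg12, which is joined to Atg5, had 8.15 and 8.14 in irradiated and 7.89 and 7.96 in non-irradiated CD169-DTR cells, and 8.15 and 8.03 in irradiated and 8.04 and 8.30 in non-irradiated WT cells. Neither gene separated in WT cells, and both were higher without overlap in irradiated CD169-DTR cells, at an unadjusted p above 0.05. Atg7, the E1-like enzyme, Atg10 and the proteases Atg4a, Atg4b, Atg4c and Atg4d complete the group, whose differences lay between -0.555 and 0.22 log2 in CD169-DTR cells and between -0.435 and 0.31 in WT cells.

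Of the 5 Atg8-family genes, 4 were lower in sign after irradiation in each genotype. Gabarapl2 was the exception, by 0.015 log2 in CD169-DTR cells and 0.06 in WT cells. After median centring, which shifts every gene of a comparison alike, all 5 were lower in each genotype. Gabarapl1, a GABARAP-type Atg8 gene known as a FoxO target, had the widest difference of any member in WT cells. It had 11.04 and 10.02 in irradiated against 11.39 and 10.80 in non-irradiated CD169-DTR cells, and 10.60 and 10.63 against 11.86 and 11.42 in WT cells. The irradiated CD169-DTR arrays stood apart from each other and overlapped the non-irradiated ones, and the WT groups were separated. Its WT difference was -1.025 ± 0.362 log2 (95% confidence interval -1.891 to -0.159), 2.03-fold lower (limma, adjusted p = 0.582). With each array left out in turn, that difference lay between -1.245 and -0.805. Map1lc3b, the LC3 gene most used as an autophagosome marker, had 7.52 and 7.36 in irradiated and 7.59 and 7.48 in non-irradiated CD169-DTR cells, and 7.46 and 7.37 in irradiated and 7.66 and 7.53 in non-irradiated WT cells. Its differences were -0.095 and -0.18 log2, both within the spread of the fit. Gabarap was lower without overlap in both genotypes, by similar amounts (-0.195 ± 0.119 log2 in CD169-DTR cells and -0.215 ± 0.119 in WT cells). Array signals cannot show autophagosome number or flux.

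Sqstm1 had the smallest p of the 3 cargo receptors in WT cells. It had 9.21 and 8.99 log2 in irradiated and 9.51 and 9.16 in non-irradiated CD169-DTR cells. In WT cells it had 8.69 and 8.84 with irradiation, against 9.41 and 9.34 without. The irradiated WT arrays lay below all the others, and the CD169-DTR groups overlapped. The WT difference was -0.61 ± 0.16 log2 (95% confidence interval -0.994 to -0.226), 1.53-fold lower (limma, adjusted p = 0.508). It lay between -0.685 and -0.535 with each array left out in turn. Nbr1, a relative of p62, had 7.42 and 7.20 in irradiated and 6.81 and 6.86 in non-irradiated CD169-DTR cells, and 6.80 and 7.64 in irradiated and 7.46 and 7.10 in non-irradiated WT cells. Nbr1 was thus higher without overlap in CD169-DTR cells (0.475 log2, not beyond the spread of the fit) and overlapped in WT cells, whose irradiated replicates disagreed. Tax1bp1 differed by 0.22 log2 in WT cells.

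The lysosomal membrane protein Lamp1 had 11.93 and 11.88 in irradiated against 11.75 and 11.97 in non-irradiated CD169-DTR cells, and 12.01 and 12.15 against 11.92 and 11.55 in WT cells. It was higher in WT cells without overlap, but not beyond the spread of the fit (0.345 ± 0.162 log2, limma, adjusted p = 0.657). Lamp2, needed for lysosome fusion, had differences of the opposite sign in both genotypes, -0.19 ± 0.189 log2 in CD169-DTR cells and -0.17 ± 0.189 in WT cells. Tfeb had 5.34 and 5.29 in irradiated and 5.46 and 5.26 in non-irradiated CD169-DTR cells, and 5.17 and 5.30 in irradiated and 5.25 and 5.21 in non-irradiated WT cells. The Tfeb difference was 0.005 ± 0.123 log2 in WT cells, with a 95% confidence interval of -0.291 to 0.301. Its activity is set by phosphorylation and location, which transcript levels do not show.

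The 3 FoxO genes did not share a direction in either genotype as deposited. After median centring, which shifts every gene of a comparison alike, all 3 were lower in sign in WT cells. Foxo3 had 7.98 and 7.99 in irradiated against 8.34 and 8.16 in non-irradiated CD169-DTR cells, and 7.94 and 8.03 against 8.25 and 8.30 in WT cells. It was lower after irradiation in both genotypes without overlap, with differences of -0.265 ± 0.118 log2 in CD169-DTR cells (limma, adjusted p = 0.764) and -0.29 ± 0.118 in WT cells (adjusted p = 0.638). With each array left out in turn, these lay between -0.355 and -0.175 and between -0.335 and -0.245. Foxo4 had 5.17 and 5.70 in irradiated and 4.8 and 4.84 in non-irradiated CD169-DTR cells, and 5.34 and 5.01 in irradiated and 5.18 and 5.18 in non-irradiated WT cells. It was higher in irradiated CD169-DTR cells by 0.615 ± 0.201 log2, 1.53-fold (limma, adjusted p = 0.628), and overlapped in WT cells. That value was 0.35 without irradiated CD169-DTR replicate 2 and 0.88 without irradiated CD169-DTR replicate 1. Foxo1 had 9.75 and 9.41 in irradiated and 10.08 and 9.69 in non-irradiated CD169-DTR cells, and 9.88 and 9.47 in irradiated and 9.55 and 9.71 in non-irradiated WT cells. Foxo1 groups overlapped in both genotypes.

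**Figure D2:**
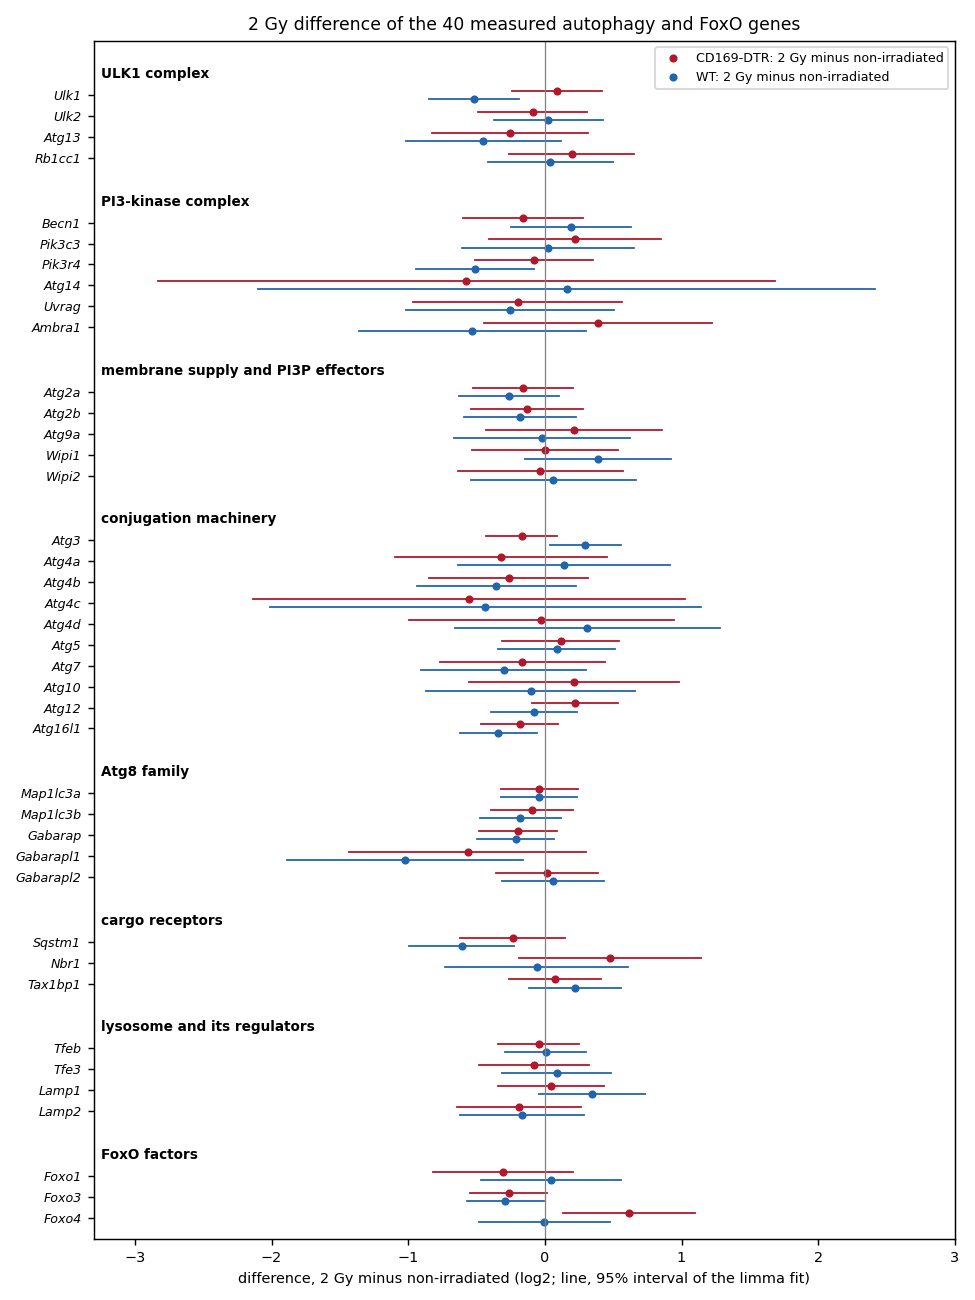
Log2 difference of 2 Gy minus non-irradiated cells with its 95% confidence interval for the 40 members, grouped by role, with CD169-DTR and WT drawn separately. Most intervals cross 0. The WT intervals of Sqstm1, Ulk1, Gabarapl1, Pik3r4, Atg16l1 and Foxo3 lie below it. Those of Atg3 in WT cells and of Foxo4 in CD169-DTR cells lie above it.

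Averaged over both genotypes, 5 members (12.5%) were lower at an unadjusted p under 0.05, against 3.98% of all probe sets, and 0 were higher, against 5.24%. These shares of all probe sets again include low-signal ones. None of the 40 passed the adjusted threshold, against 0.0099% of all probe sets. The 5 were Sqstm1 (-0.42 ± 0.113 log2, 1.34-fold lower, limma, adjusted p = 0.405), Foxo3, Atg16l1, Gabarapl1 and Gabarap. Foxo3 averaged -0.28 ± 0.083 log2 (1.21-fold lower) and Atg16l1 -0.26 ± 0.083 log2 (1.2-fold lower). Gabarapl1 averaged -0.795 ± 0.256 log2 and Gabarap -0.205 ± 0.084 log2. The adjusted p of these 4 lay between 0.445 and 0.539. Without both outlying arrays, which leaves 1 array in each 2 Gy group, Sqstm1 averaged -0.33 log2.

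**Figure D3:**
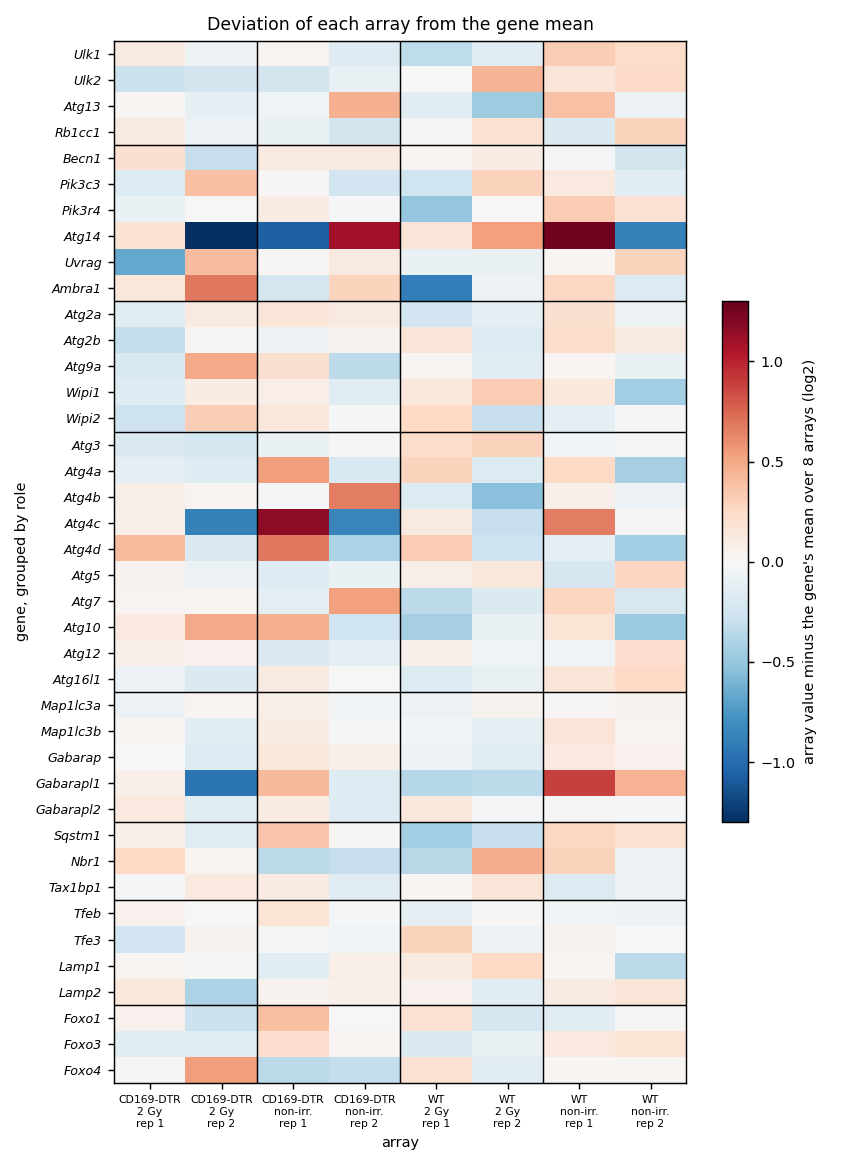
Deviation of each member from its own mean over the 8 arrays, in log2 units, with a row per gene ordered by role and a column per array grouped as CD169-DTR 2 Gy, CD169-DTR non-irradiated, WT 2 Gy and WT non-irradiated. Atg14 and Atg4c vary most between arrays of the same group (SD 1.202 and 0.835 log2), and no column is high or low for every gene.

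Depletion of CD169+ cells was compared at each dose. Without irradiation, 0 of the 40 members passed the adjusted threshold, as did 0.0% of all probe sets. Ulk1 was the only member at an unadjusted p under 0.05 and was lower in CD169-DTR than in WT cells (-0.35 ± 0.138 log2, 1.27-fold, limma, adjusted p = 0.999). That is 2.5% of the members against 1.89% of all probe sets on the lower side, with 0 members against 2.49% on the higher side. Ulk2 (-0.365 ± 0.166 log2) and Atg12 (-0.245 ± 0.131 log2) followed, and CD169-DTR and WT arrays did not overlap for either. The Atg12 difference was -0.115 without non-irradiated WT replicate 2 and -0.375 without non-irradiated WT replicate 1. The Ulk1 arrays of the genotypes did not overlap either, yet the difference lay between -0.45 and -0.25 with each array left out, not always at an unadjusted p under 0.05. In the same comparison all 8 granulocyte markers were higher in sign in CD169-DTR cells (median difference 0.733 log2, list mean 9.55 and 10.02 against 8.42 and 9.16 in WT cells). All 6 LT-HSC markers were lower in sign, 2 at an unadjusted p under 0.05 (list mean 10.41 and 10.26 against 10.57 and 10.53). The part of these markers in the genotype results was not tested.

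After 2 Gy, Atg3 had the smallest p of any member in any of the 6 comparisons. It was 10.73 and 10.69 in CD169-DTR cells against 11.15 and 11.21 in WT cells, a difference of -0.47 ± 0.109 log2, 1.39-fold lower (limma, adjusted p = 0.58). It lay between -0.5 and -0.44 with each array left out. Ulk2 was lower in CD169-DTR cells, at -0.48 ± 0.166 log2 (adjusted p = 0.645), a value that was -0.26 without irradiated WT replicate 2. Ambra1 had 8.40 and 8.94 in irradiated and 8.02 and 8.54 in non-irradiated CD169-DTR cells, and 7.35 and 8.18 in irradiated and 8.52 and 8.07 in non-irradiated WT cells. After 2 Gy the CD169-DTR arrays of Ambra1 were both above the WT ones, by 0.905 ± 0.348 log2 (adjusted p = 0.648). The difference was 0.49 without irradiated WT replicate 1. It was 0.22 without both outlying arrays, which compares 1 array with 1. None of the 40 passed the adjusted threshold, against 0.0% of all probe sets. At an unadjusted p under 0.05, 1 member (2.5%) was higher and 2 (5.0%) were lower, against 3.86% and 3.71% of all probe sets, so these counts lie near the background. Here 7 of the 8 granulocyte markers (median difference -0.845 log2) and 5 of the 6 LT-HSC markers (median difference -0.11 log2) were lower in sign in CD169-DTR cells.

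Whether the 2 Gy effect depended on genotype was tested as the effect in CD169-DTR cells minus that in WT cells. No member passed the adjusted threshold, nor did any probe set (0.0%). Ulk1 had a difference of 0.61 ± 0.195 log2 (95% confidence interval 0.142 to 1.078, limma, adjusted p = 0.913). Atg3 had -0.465 ± 0.153 log2 (-0.833 to -0.097, adjusted p = 0.913). These are 1 member on each side (2.5%), against 2.4% of all probe sets on the higher and 2.78% on the lower side, so these shares lie near the background. Without both outlying arrays, each 2 Gy group holds 1 array, so no count is given. Foxo4 came next, with 0.62 ± 0.284 log2 (-0.06 to 1.3, adjusted p = 0.933), and was 0.355 without irradiated CD169-DTR replicate 2. The 2 Gy effects of the genotypes share no arrays, while each genotype comparison shares arrays with them, so the values for Ulk1 and Atg3 in the several comparisons are not independent.

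Promoters were read for 33 of the 40 members, as the 250 bases before the gene start in RefSeq (GRCm38.p6). The motifs searched, on both strands, were the E-box core CACGTG, which lies within the element bound by TFEB and TFE3, the FoxO core GTAAACA, and the antioxidant response element core TGACNNNGC. The E-box core was found in 4 of the 33 (12.1%), namely Atg3, Atg5, Atg7 and Lamp1, against 6.86% of 27025 genes. At least 2 copies occurred in Atg3 and Lamp1, against 0.5% of all genes. The FoxO core was found in 0 of the 33, against 3.54%, and the antioxidant core in 3 (9.09%; Ulk2, Atg13 and Tax1bp1), against 11.5%. A match is a description of the letters, and no match says only that these letters are not in this window. Atg3 and Lamp1 are shown because they hold 2 and 4 copies of the E-box core, written in capitals, and were both higher in irradiated than in non-irradiated WT cells without overlap. Of all probe sets, low-signal ones included, 31.4% were higher without overlap there. Among the members, Becn1 and Tax1bp1 were too. Tax1bp1 holds no E-box core in this window, and the Becn1 promoter was not read. Lamp1 was not at an unadjusted p under 0.05 there, and Atg3 was lower in irradiated CD169-DTR cells. Of the other members with an E-box core, Atg7 differed by -0.3 log2 and Atg5 by 0.085 in WT cells, both with overlapping groups. Gabarapl1 and Sqstm1 are shown as the members with the widest difference and the smallest p in the WT comparison, and they hold none of the motifs. A link between motifs and direction was not tested.
Atg3 (chr16:45158579-45158828, + strand): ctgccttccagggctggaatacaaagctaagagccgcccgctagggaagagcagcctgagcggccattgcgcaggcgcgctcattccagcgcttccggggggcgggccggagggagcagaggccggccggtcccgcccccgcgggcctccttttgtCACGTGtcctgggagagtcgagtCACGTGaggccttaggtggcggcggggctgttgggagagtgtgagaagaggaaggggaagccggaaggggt
Lamp1 (chr8:13158911-13159160, + strand): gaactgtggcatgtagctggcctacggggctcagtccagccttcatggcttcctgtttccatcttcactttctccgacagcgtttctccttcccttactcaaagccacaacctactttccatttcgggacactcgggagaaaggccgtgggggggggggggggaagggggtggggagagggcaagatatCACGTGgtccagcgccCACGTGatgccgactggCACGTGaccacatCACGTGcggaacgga
Gabarapl1 (chr6:129532942-129533191, + strand): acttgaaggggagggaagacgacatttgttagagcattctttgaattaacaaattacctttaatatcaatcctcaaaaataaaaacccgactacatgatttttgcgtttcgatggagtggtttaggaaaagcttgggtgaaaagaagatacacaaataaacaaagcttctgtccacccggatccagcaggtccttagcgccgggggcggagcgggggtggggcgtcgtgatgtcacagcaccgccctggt
Sqstm1 (chr11:50210821-50211070, - strand): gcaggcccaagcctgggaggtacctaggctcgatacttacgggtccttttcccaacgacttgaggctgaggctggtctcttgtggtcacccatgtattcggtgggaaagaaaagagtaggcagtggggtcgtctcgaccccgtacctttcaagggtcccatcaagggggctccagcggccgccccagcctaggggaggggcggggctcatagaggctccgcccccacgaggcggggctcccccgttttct

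Genes around the pathway were read from 6 further lists. In WT cells after irradiation, lysosomal enzymes and V-ATPase subunits had a median of -0.205 log2, with 19 of 25 lower in sign and 4 lower at an unadjusted p under 0.05. FoxO targets had a median of -0.27 log2, with 13 of 16 lower in sign and 2 lower at that threshold. All genes had a median of 0.075 log2, and 3.21% of all probe sets were lower at that threshold. Both values again include low-signal probe sets and are not matched to the lists in signal. In CD169-DTR cells the medians were -0.12 log2 for the lysosomal list (18 of 25 lower in sign, 2 lower and 1 higher at that threshold) and 0.02 log2 for FoxO targets (7 of 16 lower in sign, 1 at that threshold), against 0.035 log2 for all genes, with 3.53% of all probe sets lower and 3.24% higher at that threshold. No gene of any list passed the adjusted threshold. Among the lysosomal genes in WT cells, Psap, which makes the saposin precursor, differed by -0.505 log2 (adjusted p = 0.48). Gaa, acid alpha-glucosidase, differed by -0.7 log2 (adjusted p = 0.48). In CD169-DTR cells the cathepsins Ctsl and Ctsb differed by -0.655 and -0.49 log2. Among FoxO targets, Pik3ip1 and Sesn3 differed by -0.665 and -0.79 log2 in WT cells and Txnip by -0.66 in CD169-DTR cells, each at an unadjusted p under 0.05.

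Among these 6 lists, the genes with the smallest p in WT cells after irradiation were Tsc2 and Fnip1 of the mTORC1 and AMPK list. Tsc2, a brake on mTORC1, had 9.60 and 9.99 in irradiated and 10.45 and 10.30 in non-irradiated CD169-DTR cells. In WT cells Tsc2 had 9.14 and 9.35 with irradiation and 10.36 and 10.41 without, so that irradiated arrays lay below non-irradiated ones in both genotypes. The difference was -0.58 log2 in CD169-DTR cells (limma, adjusted p = 0.622), -1.14 ± 0.166 in WT cells (adjusted p = 0.301) and -0.86 ± 0.117 averaged over both (adjusted p = 0.209). Fnip1, a folliculin partner in nutrient sensing, had 8.10 and 8.30 in irradiated against 8.68 and 8.33 in non-irradiated CD169-DTR cells, and 7.71 and 7.55 against 8.84 and 8.65 in WT cells. Both pairs were separated, narrowly in CD169-DTR cells, and the WT difference was -1.115 ± 0.166 log2 (adjusted p = 0.301). The list as a whole was balanced in WT cells, with 12 of 24 lower in sign and a median of -0.005 log2. The 25 other autophagy genes (15 lower, median -0.075), the 10 PI3K-Akt genes (8 lower, median -0.165) and the 8 p53-linked genes (4 lower, median 0.0175) held 1, 0 and 0 genes at an unadjusted p under 0.05 in WT cells, the 1 being Calcoco1 (-0.92 log2).

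**Figure D4:**
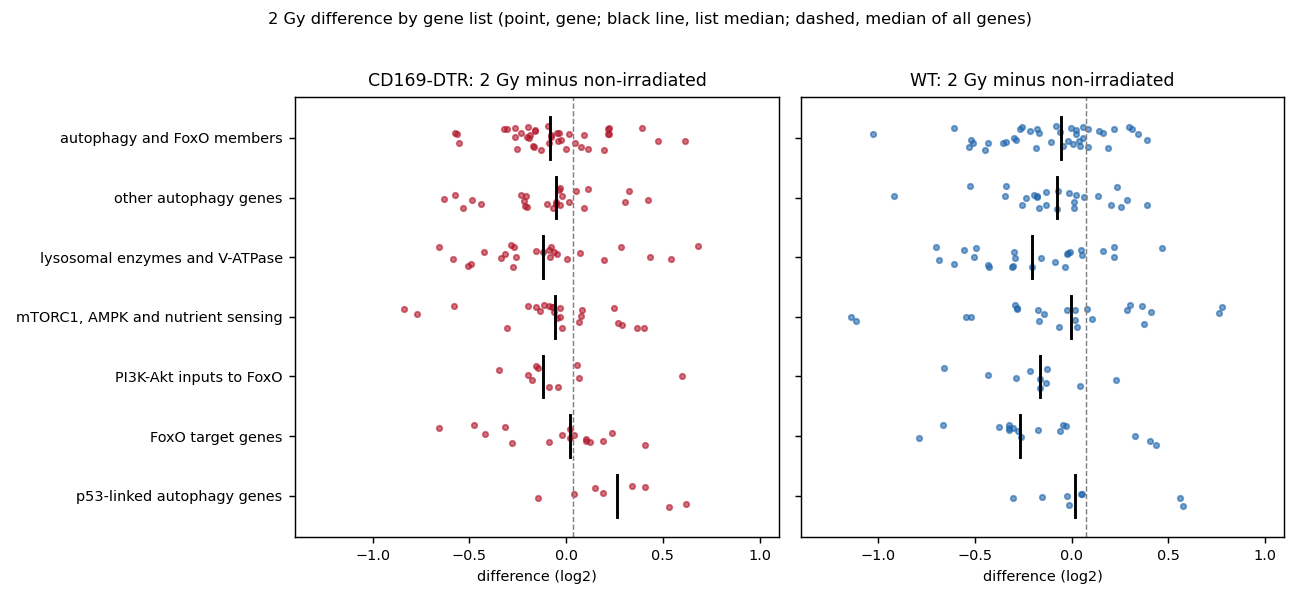
Log2 difference of 2 Gy minus non-irradiated cells for each gene of the members and of the 6 other lists, as points with the list median as a line and the median of all genes dashed, for CD169-DTR and WT cells. The FoxO targets have a median of 0.02 in CD169-DTR cells and of -0.27 in WT cells, a contrast that was not tested.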

How the data were processed

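The 8 arrays were Affymetrix arrays of total RNA. Per the submitters' processing notes, the authors made the deposited values with RMA (robust multi-array averaging), and they were taken as log2, RMA's convention, since the deposited table does not state a base. No build is given for the array in the sources used here. Of 40161 probe sets, 30294 with 1 gene symbol were tested (2145 had several symbols and 7722 had none). Entrez IDs matched RefSeq's GRCm38.p6 table for 22546 of them and updated 827 symbols.

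The values were used without further normalisation, filter or pseudocount. A model with 4 group means was fitted with limma 3.58.1 (lmFit and eBayes, statmod 1.5.0, R 4.3.3), with 4 residual and 2.59 prior degrees of freedom. Tests were two-sided, with Benjamini-Hochberg adjustment over 30294 probe sets per comparison and a threshold of 0.05. Standard errors and 95% intervals come from this fit, whose precision is bounded by 2 arrays per group. The procedure was tested on simulated data. Deviations of same-numbered arrays correlated between -0.0877 and 0.159, so the replicate numbers were not taken as pairs.

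Array values were given for the 3 members with the smallest p in each of the 6 comparisons and for Ulk1, Atg5, Becn1, Map1lc3b, Gabarapl1, Sqstm1, Tfeb, Lamp1, Foxo1, Foxo3 and Foxo4, and up to 2 genes of each other list could be named per comparison. Array values of Atg14, Pik3r4, Gabarap, Tsc2 and Fnip1 were added after their values were seen. The members and lists were chosen with earlier results of these data known. Alternatives were an intensity trend, a filter on dim probe sets, cyclic loess, median centring, the median over a gene's probe sets, a replicate block, a fit of only the groups compared, and leaving out arrays.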

Additional observations from a re-analysis of the deposited data

Results flagged for a closer look

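Atg3 drew attention because its arrays moved in opposite directions after irradiation in the 2 genotypes, with no overlap in either. The 2 Gy difference was -0.17 log2 in CD169-DTR cells and 0.295 log2 in WT cells. The difference between these effects was -0.465 ± 0.153 log2 by limma (SE, 95% confidence interval -0.833 to -0.097, adjusted p = 0.913). This pattern was found in 1 of 40 members and in 1344 of 30294 probe sets (4.44%).

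Ulk1 drew attention because the genotypes differed in opposite directions with and without irradiation, again with no overlap. CD169-DTR minus WT was 0.26 log2 after 2 Gy and -0.35 log2 without irradiation. The difference between these was 0.61 ± 0.195 log2 (limma, 0.142 to 1.078, adjusted p = 0.913). That pattern was found in 1 of 40 members and in 1580 probe sets (5.22%). With 2 arrays in a group, neither can be called the outlying one for a single gene. The arrays called outlying here were named from the principal components of all probe sets.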

How the results depend on the processing

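No member passed an adjusted p of 0.05 in any comparison under any alternative. None of the 3 to 7 members with the smallest p in each comparison changed sign there with cyclic loess, with median centring or without arrays of the groups compared. The other alternatives leave a member's difference itself unchanged, so they could not change its sign. In the WT comparison, 9 smaller differences did with median centring, among them Gabarapl2, Foxo1, Tfeb, Atg5 and Ulk2, and those of Tfe3 and Tfeb with cyclic loess. In the other comparisons 1 to 6 changed sign with median centring and 0 to 4 with cyclic loess. Counts of members at an unadjusted p under 0.05 were less stable. For WT 2 Gy minus WT non-irradiated the count was 7, 4 with only the groups compared, 2 without both outlying arrays and 2 to 7 without each array in turn. For CD169-DTR 2 Gy minus CD169-DTR non-irradiated it was 1, 2 with median centring, 2 with only the groups compared, 2 without both outlying arrays and 1 to 4 without each array. For CD169-DTR minus WT without irradiation it was 1, 0 with an intensity trend, 0 with the dim filter, 2 with cyclic loess, 3 with only the groups compared, 3 without both outlying arrays and 0 to 3 without each array. For CD169-DTR minus WT after 2 Gy it was 3, and 2 to 4 without each array. For the difference of the 2 Gy effect it was 2, 0 with the intensity trend, 0 without both outlying arrays and 0 to 4 without each array. For the averaged 2 Gy effect it was 5, 3 with the intensity trend, 9 with median centring, 3 without both outlying arrays and 4 to 7 without each array.

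The members' median difference moved to -0.168 log2 with median centring and -0.128 without both outlying arrays in the WT comparison, and to 0.138 with median centring for the difference of the 2 Gy effect. Without each array it lay between -0.117 and -0.03 for CD169-DTR after irradiation, -0.135 and -0.0525 for WT after irradiation, -0.0075 and 0.06 between genotypes after 2 Gy, -0.113 and 0.0125 between genotypes without irradiation, -0.005 and 0.08 for the difference of the effect, and -0.102 and -0.0025 for the averaged effect. Median centring moved the median of all probe sets in the WT comparison by -0.115 log2, to -0.04. It gave 0 members higher and 9 lower there, against 1 and 6. Of all probe sets, 1.9% were higher and 6.06% lower there, against 4.6% and 3.21%. For CD169-DTR after irradiation it gave 1 higher and 1 lower, against 1 and 0 (shares 2.8% and 3.92%, against 3.24% and 3.53%). Between genotypes after 2 Gy it gave 2 and 1, against 1 and 2 (shares 5.87% and 2.14%, against 3.86% and 3.71%). For the difference of the effect it gave 2 and 0, against 1 and 1 (shares 3.78% and 1.65%, against 2.4% and 2.78%). Cyclic loess gave 2 and 1 for that difference (shares 2.85% and 2.7%). The replicate block gave 5 members for WT and 1 for CD169-DTR after irradiation, 0 between genotypes without irradiation, 3 between them after 2 Gy, 2 for the difference of the effect and 4 for the averaged effect, and it changed no adjusted call. The causes were not tested. A fit of only the groups compared was not run for the last 2 comparisons, which use all 4 groups. With 2 arrays per group, the median residual SD of 0.182 log2 limits what could be called.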
